A study of Mus musculus with 21 samples.

Results

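Fatty acid binding protein genes were followed in mouse liver: Fabp5, Fabp4, Fabp2 and Fabp1, which are 4 of the 19718 genes tested. They were taken by name from the non-control spots of 21 scanner files, and each is read by 1 probe, spotted once, of 55681 probes on the array. They were chosen by the log2 differences between the diets and the liver intensities measured on these same arrays, so their diet differences are described here and not tested.

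The HF-Q group held 10 mice on a high-fat diet with quercetin, a plant flavonoid, at 0.33% of diet weight, and the HF group held 11 mice on the high-fat diet alone. All were adult male C57BL/6J mice, an inbred strain, that had eaten a normal-fat diet for 3 weeks before 12 weeks of intervention and were fasted for 2 to 4 h before the liver was taken. A normal-fat group over the same weeks is not analysed here, so every comparison is made within high-fat feeding. Each liver was labelled with Cy5 and set on its own array against a Cy3-labelled pool of all samples, and a log2 ratio is that of the liver to the pool. The 3 slides each carried both diets.

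Fatty acid binding proteins are small proteins of the cytosol that carry long-chain fatty acids and other lipids between membranes, enzymes and the nucleus. Fabp1 is the abundant form of hepatocytes, where it takes part in fatty acid uptake and hands ligands to the nuclear receptor PPAR-alpha. Fabp2 is best known from the enterocytes of the small intestine, Fabp4 from adipocytes and macrophages, where it is a PPAR-gamma target, and Fabp5 from the epidermis, with lower levels in many tissues including macrophages and liver. In whole liver, fewer cells of a type and less RNA per cell cannot be told apart.

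The probes are 60 bases long, and their places are given on mouse build mm9. The Fabp5 probe lies on the plus strand of chromosome 3 at chr3:10016185-10016244, the Fabp4 probe on the minus strand at chr3:10204452-10204511, the Fabp2 probe on the plus strand at chr3:122602276-122602335 and the Fabp1 probe on the plus strand at chr6:71154906-71154965. Each probe was searched against the other 55680 probes for shared runs of at least 16 bases. The Fabp4, Fabp2 and Fabp1 probes shared none on either strand. The Fabp5 probe shared a run of 50 bases with the probe of a feature that the array names only NAP114472-1 and places on chromosome 8. It also shared 38 bases, as the reverse complement, with a probe for a long intergenic RNA on chromosome 2. The first 30 bases of the Fabp5 and NAP114472-1 probes are printed 5′ to 3′ because they show part of the 50-base run that both hold. Capitals mark bases inside that run.
Fabp5 probe: gtcaaatgCAACAAACAGCTTCACTTCTTT
NAP114472-1 probe: cggacataaaCAACAAACAGCTTCACTTCT

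The chromosome 2 probe, which reads the opposite strand, was well above background on 0 of 21 arrays, whereas Fabp5 and NAP114472-1 were on 21 of 21. A second unnamed feature, NAP111439-1, whose signal is described beside that of Fabp5 further on, shared no run longer than 8 bases with the Fabp5 probe.

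The Cy5 spots of all 4 genes stood well above background on every array, and none was saturated. The processed Cy5 intensity of Fabp5 had a median of 2445 in HF-Q livers (1518 to 3750) and of 1502 in HF livers (1010 to 4833). That of Fabp4 had a median of 609.6 in HF-Q livers (507.8 to 981.1) and of 689.1 in HF livers (485.3 to 1288). The medians of Fabp2 were 19040 in HF-Q livers (16710 to 37880) and 23850 in HF livers (16620 to 31610). Fabp1 had medians of 105800 in 8 HF-Q livers (93170 to 143800) and 112800 in HF livers (99460 to 126400). Its spots on the arrays of HF-Q 6 and HF-Q 9 were marked as outlying by the scanner software and left out. Intensities of different probes are not on a common scale, so they give no order of abundance among the 4 genes.

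Fabp5 had the largest diet difference of the 4 members, and was the member with the widest spread. Its log2 ratio in HF-Q livers had a lowest value of -0.55, a median of 0.11 and a highest value of 0.64. In HF livers the lowest was -1.17, the median -0.70 and the highest 0.99. The highest HF value belonged to 1 liver, HF 2, and the other 10 HF livers lay between -1.17 and -0.49. All 10 HF-Q livers were above the HF median, and 8 of 10 were above every HF liver other than HF 2, while HF 2 was above every HF-Q liver. The groups therefore overlapped, both through HF 2 and through HF-Q 5 and HF-Q 10, which lay below HF 3. Of the 10 HF livers other than HF 2, 9 were below every HF-Q liver. Mean log2 ratios were 0.030 ± 0.44 in HF-Q livers (SD, n = 10) and -0.62 ± 0.57 in HF livers (SD, n = 11). Fabp5 was thus 1.57 times as high in HF-Q as in HF livers by the means (log2 difference 0.65 ± 0.20, SE).

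The other 3 members had smaller differences, all within the spread of their groups. The log2 ratio of Fabp4 had a lowest value of -0.37, a median of -0.13 and a highest value of 0.23 in HF-Q livers, against -0.59, 0.013 and 0.60 in HF livers. Every HF-Q value of Fabp4 lay inside the HF range, and the difference was -0.12 ± 0.11 (SE). For Fabp2 the lowest, median and highest values were -0.70, -0.23 and 0.53 in HF-Q livers, against -0.42, 0.093 and 0.35 in HF livers. Fabp2 was below the HF median in 9 of 10 HF-Q livers, and HF-Q 10 was the highest of all livers, so the groups overlapped with a difference of -0.22 ± 0.11 (SE). Fabp1, the hepatocyte form, ran from 0.13 to 0.39 around a median of 0.36 in 8 HF-Q livers and from 0.22 to 0.63 around a median of 0.36 in HF livers. Its normalized log2 ratio was above 0 in every liver measured, and the diet difference was -0.066 ± 0.051 (SE). The processed Cy5 intensity of Fabp1 was below that of the pool in HF-Q 2, HF-Q 3, HF 6 and HF 11, and above it in the others. Its place against the pool therefore rests on the normalization.

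**Figure D1:**
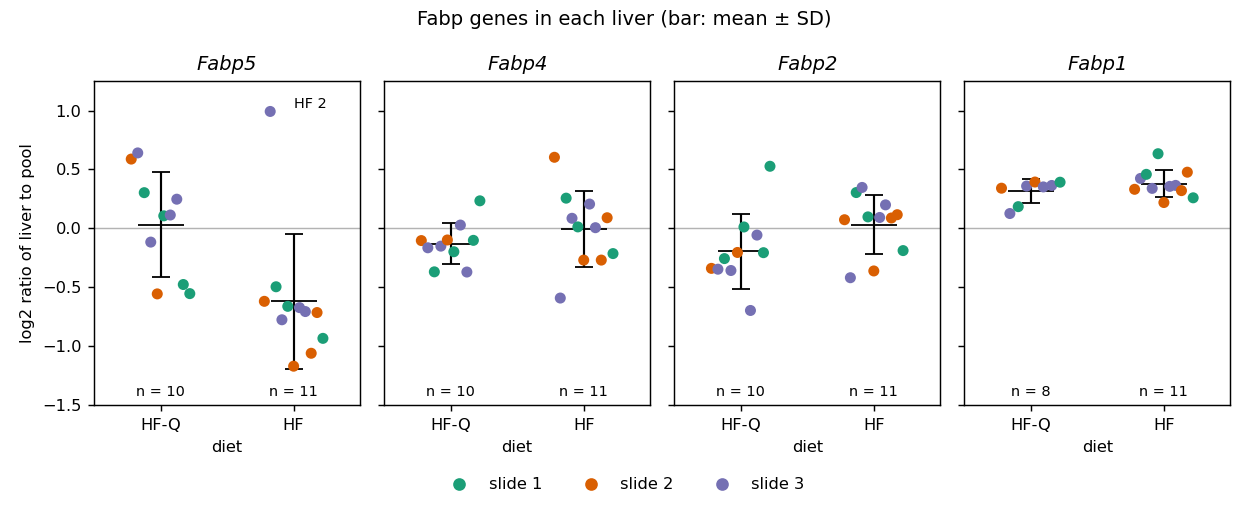
Log2 ratio of each liver to the pool (y axis) for Fabp5, Fabp4, Fabp2 and Fabp1, with HF-Q livers left of HF livers, 1 point per liver coloured by slide, and bars for mean ± SD. HF 2 is the single HF liver above the pool for Fabp5, at 0.99, while the other 10 HF livers lie at or below -0.49.

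Across the whole array, 0 of 19718 genes (0%) passed an adjusted p of 0.05 for HF-Q against HF in limma's moderated test with Benjamini-Hochberg adjustment, and none of the 4 members was called. At an unadjusted p under 0.05 the test took 1173 genes, 5.95% of those tested. Without HF 2 it called 4 genes (0.0203%), which were Fabp5, NAP114472-1, NAP111439-1 and Cyp2b10, a drug-metabolising cytochrome P450. Fabp5 is a member because of this same contrast, so nothing is read from that call. Its difference without HF 2 was 0.81 ± 0.14 (SE), the largest of the 21 values obtained by leaving out each liver in turn, and the lowest was 0.58. For Cyp2b10 the difference without HF 2 was -1.56 ± 0.27 (SE), and HF 2 had the lowest log2 ratio of all 21 livers, at -1.96. HF-Q 10, with a Fabp5 log2 ratio of -0.55, had the highest Cyp2b10 of the HF-Q livers, at 0.62. HF-Q 5 and HF-Q 9 had similar Fabp5, at -0.55 and -0.48, but Cyp2b10 of -0.92 and -1.21. Why HF 2 stood apart from its group on both genes, and HF-Q 10 on Cyp2b10, was not tested.

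**Figure D2:**
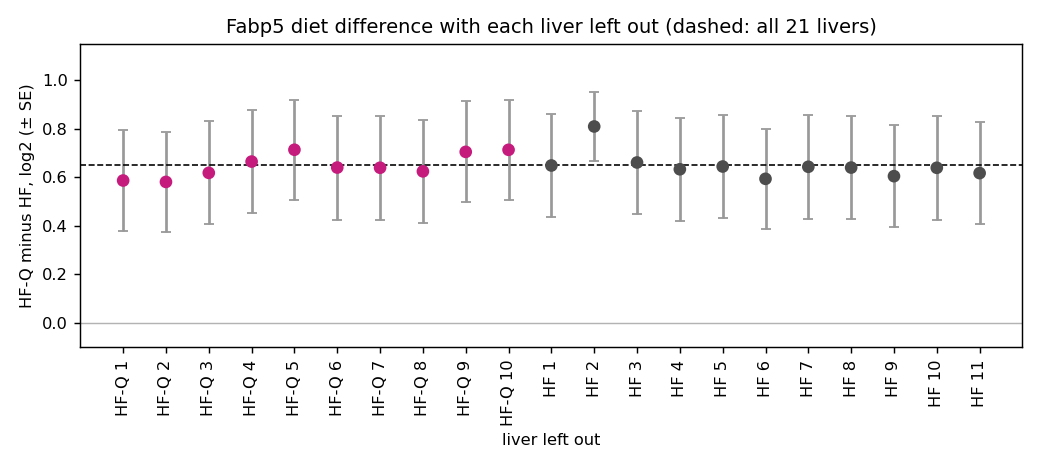
Fabp5 log2 difference, HF-Q minus HF, ± SE (y axis) after leaving out each liver in turn (x axis), with the value from all 21 livers dashed. The values run from 0.58 to 0.81, and the one without HF 2 is the highest.

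On each slide alone Fabp5 was higher in HF-Q than in HF livers. The difference was 0.54 ± 0.21 on slide 1, which carried 4 HF-Q and 3 HF arrays, 0.91 ± 0.29 on slide 2, which carried 2 and 4, and 0.51 ± 0.36 on slide 3, which carried 4 and 4 and held HF 2 (SE). Fabp4 was lower in HF-Q livers on all 3 slides, with differences of -0.13, -0.14 and -0.091. Fabp2 was lower too, by a difference that ran from -0.052 on slide 1 to -0.42 on slide 3. Fabp1 was lower on slides 1 and 3, at -0.16 and -0.071, and higher on slide 2, at 0.030.

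The members also differed in how much livers varied within a diet. The residual SD of Fabp5 around its diet means was 0.51 on the log2 scale, higher than that of 99.1% of the genes tested, whose median was 0.126. Fabp2 at 0.28 and Fabp4 at 0.26 were above 95.1% and 94.0% of genes. Fabp1 at 0.11 was above 32.8%. Each channel was then taken over the arrays of both diets, so the diet difference enters, after loess and a further normalization between arrays. The variation lay in the liver channel: the log2 Cy5 signal of Fabp5 had an SD of 0.616 over 21 arrays. The log2 Cy3 signal of the pool at the same spot had an SD of 0.042. For Fabp2 the 2 values were 0.278 and 0.041, and for Fabp4 0.296 and 0.090. For Fabp1 the liver channel varied less than the pool did, at 0.065 and 0.090 over 19 arrays. Without HF 2 the SD of Fabp5 in HF livers was 0.21, against 0.57 with it, and livers then spanned a 2.29-fold range within HF-Q and a 1.59-fold range within HF.

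Markers of other cell types were set beside these values. All 10 hepatocyte markers were well above background, with a summed Cy5 intensity of 586400 to 904700 in HF-Q livers, 679200 to 938500 in HF livers and 793000 in HF 2. Of 18 macrophage markers 17 were above background on at least 10 arrays, and their sum was 20850 to 32750 in HF-Q livers and 22940 to 40070 in HF livers, the lowest HF value being that of HF 2. Of 11 adipocyte markers 6 were, namely Lep (leptin), Adrb3, Cfd (adipsin), Cidec, Plin4 and Car3, with sums of 62820 to 103300 in HF-Q livers, 67420 to 115600 in HF livers and 89670 in HF 2. Adipoq, which encodes adiponectin, and Nnat were above background on no array. Cfd, Cidec and Plin4 also belong to the list of lipid storage genes described further on. A sum of intensities follows its brightest genes, so this sum is not a measure of adipocytes.

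Of 10 markers of squamous epithelium, the tissue in which Fabp5 is best known, 6 were above background on at least 10 arrays: Krt5, Krt10, Krt15, Lor (loricrin), Sfn and Trp63. Their sum was 642 to 1051 in HF-Q livers, 699.8 to 938.9 in HF livers and 710.8 in HF 2, while Ivl, Krt1 and Krt14 were above background on no array. Of 12 enterocyte markers 3 were, namely Apoa4, Anpep and Mttp, with sums of 10290 to 14540 in HF-Q livers, 10840 to 15990 in HF livers and 13090 in HF 2. Another 7 were above background on no array: Alpi, Cdx1, Cdx2, Fabp6, Krt20, Lct and Rbp2. The sum rests on 3 of the 12 genes and is not a measure of enterocytes. The part of these other cell types in the members' values was not tested.

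The remaining family members were mostly dim. Fabp7, known from brain, was above background on 21 arrays and its difference was 0.071 ± 0.099 (SE). One of the pair of Fabp12 probes was above background on 14 arrays, 9 of them HF-Q and 5 HF, with a difference of 0.12 ± 0.060 (SE). Fabp9, Fabp3, Fabp6 and Pmp2 were above background on 0 to 4 arrays and were not tested.

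Which features varied with Fabp5 from liver to liver was asked within each diet, so that the diet difference could not enter. The unnamed features NAP114472-1 and NAP111439-1 followed it almost exactly. Their log2 ratio less that of Fabp5 ran from -0.009 to 0.13 and from 0.012 to 0.18 in HF-Q livers, and from -0.049 to 0.16 and from -0.048 to 0.18 in HF livers. Pearson's r with Fabp5 was 0.996 and 0.994 in HF-Q livers and 0.993 and 0.994 in HF livers. Spearman's rho was 0.976 and 0.988 in HF-Q livers and 0.936 and 0.964 in HF livers. All 4 r values had p = 1e-05, the smallest that 100000 permutations can give (two-sided permutation test), with an adjusted p of 6e-05 over the 12 features of each family. Without the 2 livers farthest from the median of Fabp5 r was 0.99 for both features in HF-Q livers and 0.93 for both in HF livers.

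NAP114472-1 is the feature whose probe carries the 50 shared bases, and whether both probes bind the same transcript was not tested. Its diet difference was 0.66 ± 0.20 and that of NAP111439-1 was 0.70 ± 0.22 (SE), beside 0.65 ± 0.20 for Fabp5. NAP111439-1 shares no such run with the Fabp5 probe.

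**Figure D3:**
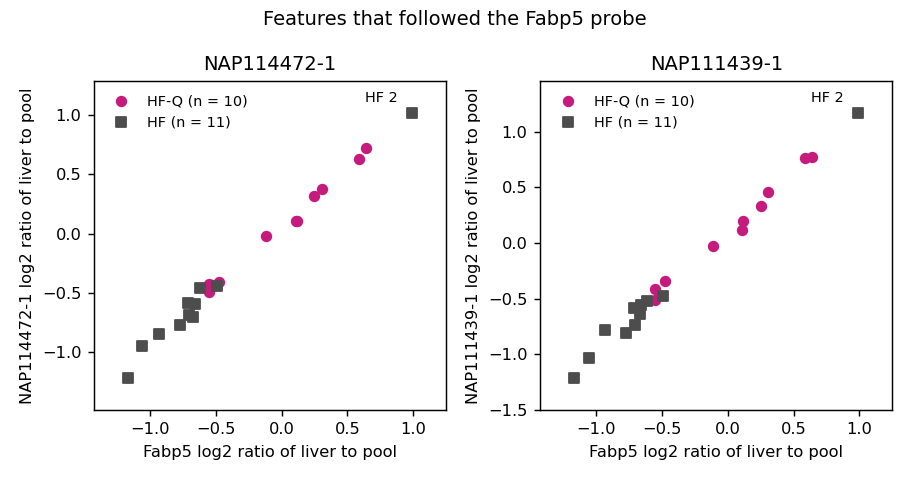
Log2 ratio of NAP114472-1 and NAP111439-1 (y axes) against that of Fabp5 (x axis) in each liver, with HF-Q livers as circles and HF livers as squares. The points of both diets fall along 1 line (r = 0.993 to 0.996), with HF 2 at its upper end.

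Among the members themselves, 6 pairs were correlated in each diet, 12 relations in all, and none had an adjusted p under 0.05 (two-sided permutation tests, exact for the 8 HF-Q livers with a Fabp1 value). In HF-Q livers r between Fabp5 and each of the other 3 members was negative after loess normalization, but with median centring in its place it was 0.31 with Fabp4, 0.24 with Fabp2 and 0.40 with Fabp1. After loess, Pearson's r was -0.51 with Fabp4 (p = 0.135, adjusted p = 0.434, rho = -0.58 with permutation p = 0.088) and -0.45 with Fabp2 (permutation p = 0.195, adjusted p = 0.434, rho = -0.44 with permutation p = 0.203). With Fabp1 it was -0.67 over 8 livers (exact permutation p = 0.0602, adjusted p = 0.361), and rho was -0.90 (exact permutation p = 0.00456, adjusted p = 0.0548). Without HF-Q 5 and HF-Q 10, the livers farthest from the median of Fabp5, r was -0.20 with Fabp4, -0.10 with Fabp2 and -0.57 with Fabp1. Centred on slide, the 3 values were -0.49, -0.30 and -0.74.

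In HF livers the direction depended on HF 2. With all 11 livers r was -0.34 between Fabp5 and Fabp4 (permutation p = 0.271, adjusted p = 0.434) and -0.36 between Fabp5 and Fabp2 (permutation p = 0.301, adjusted p = 0.434). The ranks gave rho = 0.39 (permutation p = 0.237) and 0.073 (permutation p = 0.84). Without HF 2, r was 0.81 with Fabp4 (permutation p = 0.00431, adjusted p = 0.0517) and 0.72 with Fabp2 (permutation p = 0.0203, adjusted p = 0.122). These were 0.91 and 0.71 when centred on slide, and 0.70 and 0.60 after leaving out also HF 6 and HF 9, then the livers farthest from the median. HF 2 had the highest Fabp5 of the 21 livers and the lowest Fabp4, at -0.59, and its Fabp2, at -0.42, was the lowest of the HF livers. With Fabp1, r was 0.34 with HF 2 (permutation p = 0.256, adjusted p = 0.434) and 0.64 without it (permutation p = 0.0441, adjusted p = 0.176).

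Fabp4 and Fabp2 were correlated at r = 0.31 in HF-Q livers (permutation p = 0.373) and at 0.68 in HF livers (permutation p = 0.0198), with adjusted p = 0.447 and 0.238. The HF-Q value rested on HF-Q 10, the highest HF-Q liver for both genes, and was -0.64 without it. The pairs of Fabp4 and Fabp2 with Fabp1 had r between 0.15 and 0.44 over both diets, with adjusted permutation p between 0.434 and 0.664.

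**Figure D4:**
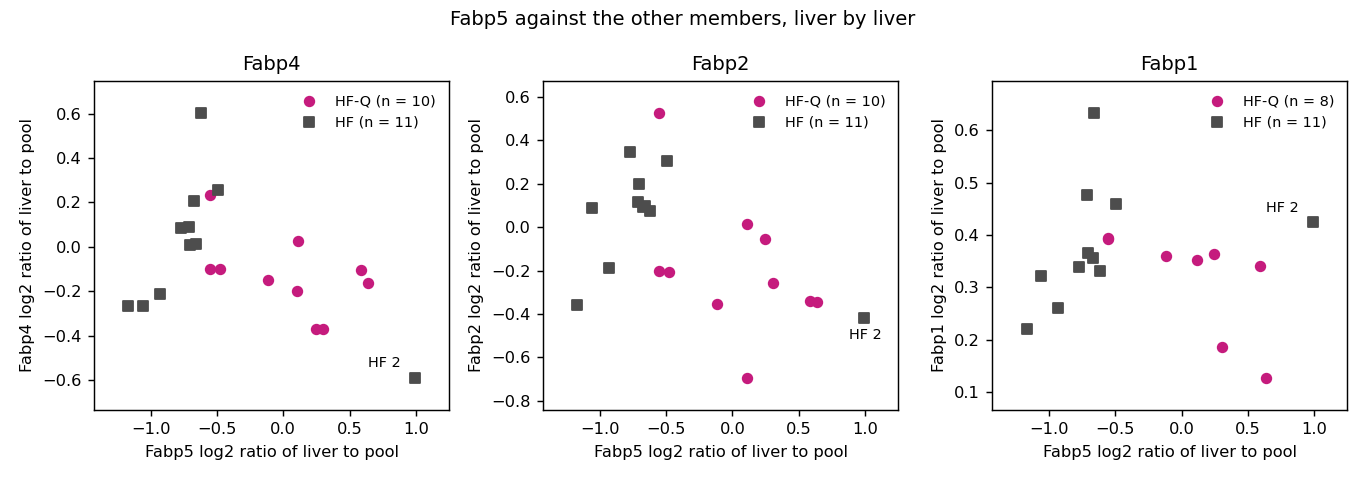
Log2 ratio of Fabp4, Fabp2 and Fabp1 (y axes) against that of Fabp5 (x axis) in each liver, with HF-Q livers as circles and HF livers as squares. Among the 10 HF livers other than HF 2, Fabp4 was higher where Fabp5 was higher (r = 0.81), and HF 2 lies at the opposite corner.

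Across all 19225 other genes with a value on every array, the slope on Fabp5 was tested within each diet with limma (Benjamini-Hochberg adjustment). In HF-Q livers 2 features (0.0104%) passed an adjusted p of 0.05, and these were the pair of NAP features. In HF livers 6 passed (0.0312%): the NAP features, F11 (coagulation factor XI), Myo10 (an unconventional myosin) and ND5 (a mitochondrial subunit of respiratory complex I) with positive slopes, and Gsta2 (a glutathione S-transferase) with a negative one. Neither Fabp4 nor Fabp2 was among them in either diet, and Fabp1 was not in this test because it lacks a value on 2 arrays. Without HF 2 the HF test called 5 features (0.026%). They were the NAP features, LOC100502818, Dcaf4 (a substrate receptor of a ubiquitin ligase) and Acacb (acetyl-CoA carboxylase beta, which makes the malonyl-CoA that inhibits fatty acid entry into mitochondria). For Acacb r was 0.90 without HF 2 and 0.30 with it. The test of a difference in slope between the diets called 0 genes with limma, and 627 genes (3.26%) had an unadjusted p under 0.05.

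Genes at an unadjusted p under 0.05 numbered 1373 in HF-Q livers (7.14%) and 1778 in HF livers (9.25%). They shared 217 genes, 15.8% of the HF-Q genes and 12.2% of the HF genes, of which 210 had slopes of the same sign. Without HF 2 there were 1786 such HF genes (9.29%). The HF-Q genes shared 167 of them, 12.2% of the HF-Q genes and 9.35% of the HF genes, and 60 had the same sign. Over all 19225 genes, which are not independent replicates, the r values of HF-Q correlated with those of HF at 0.35, and at -0.13 once HF 2 was left out.

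The genes most like Fabp5 in 1 diet were then followed in the other, which had no part in choosing them. The 8 highest and 4 lowest r in HF livers included the NAP features. Of the other 10, none passed in HF-Q livers (permutation test, adjusted p = 0.241 to 0.665), and 9 kept their sign. The highest was F11, with r = 0.62 in HF-Q livers (permutation p = 0.0624, adjusted p = 0.241, rho = 0.50) and 0.92 in HF livers. Stap2 (a signalling adaptor) had 0.41 in HF-Q livers and 0.94 in HF livers, Myo10 0.40 and 0.94, Krt18 (a keratin of hepatocytes) 0.52 and 0.92, and ND5 0.50 and 0.91. A feature the array names by its place on chromosome 17 (chr17:15368546-15377747) had 0.15 and 0.91. At the other end, Npc2 (a lysosomal cholesterol carrier) had -0.50 in HF-Q livers and -0.92 in HF livers, Coq10a (a coenzyme Q binding protein) -0.30 and -0.91, and Gsta2 -0.47 and -0.91. Nfib, a transcription factor, had 0.55 in HF-Q livers and -0.92 in HF livers.

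These HF-Q values depended on the normalization and on single livers. With median centring in place of loess, 5 of the 10 genes passed in HF-Q livers: F11 (r = 0.78, adjusted permutation p = 0.0211), Nfib (0.78, adjusted p = 0.0211), ND5 (0.74, adjusted p = 0.0325), Krt18 (0.73, adjusted p = 0.0336) and Stap2 (0.69, adjusted p = 0.0406). The sign of Nfib was again opposite to that in HF livers, and Npc2, Coq10a and Gsta2 turned positive. Without HF-Q 7, F11 (r = 0.79, adjusted permutation p = 0.0483) and Krt18 (0.81, adjusted p = 0.0202) passed, and without HF-Q 5, Npc2 did (-0.85, adjusted p = 0.0176). In HF livers the r values by which the 10 were named were all nearer 0 without HF 2. They were then 0.47 for F11, 0.68 for Stap2, 0.73 for Myo10, 0.83 for Krt18, 0.62 for ND5, 0.67 for the chromosome 17 feature, -0.42 for Npc2, -0.56 for Coq10a, -0.44 for Gsta2 and -0.63 for Nfib.

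The genes chosen in HF-Q livers were followed in HF livers in the same way. Apart from the NAP features, none had passed in the HF-Q livers that named them (limma slope on Fabp5, adjusted p = 0.48 to 0.69). Of 10 other than the NAP features none passed (permutation test, adjusted p = 0.546 to 0.547), and 8 kept their sign with HF 2, but 2 without it, Dcp1b and Lrrc8c. Gm3993 had r = 0.94 in HF-Q livers and 0.37 in HF livers, Dcp1b (an mRNA decapping factor) 0.91 and 0.29, Lrrc8c (a subunit of volume-regulated anion channels) 0.88 and 0.20, and Setdb1 (a histone methyltransferase) 0.88 and 0.18. Ccdc103, a protein of motile cilia, had 0.91 and -0.31, and a feature on chromosome 4 (chr4:145539725-145596000) had 0.88 and 0.40. The lowest were Prdm13, a transcription factor, with -0.93 in HF-Q livers and 0.29 in HF livers, Aqp2 (a water channel) with -0.92 and -0.29, Cmc2 with -0.91 and -0.31, and Ctsd (the lysosomal protease cathepsin D) with -0.91 and -0.44. Without HF 2, Aqp2 had r = 0.83 in HF livers (permutation p = 0.00414, adjusted p = 0.0166 over the 12 features), opposite in sign to its value in HF-Q livers.

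The highest values of the lower of both r, after the NAP features, belonged to Fam3c (a secreted protein), Sfswap (a splicing regulator), Hlcs (holocarboxylase synthetase, which attaches biotin to carboxylases), Prss51, Serpina11 and a feature on chromosome 11 (chr11:58136882-58143829). Fam3c had r = 0.85 in HF-Q livers and 0.84 in HF livers, and 0.20 in HF livers without HF 2. Sfswap had 0.80 and 0.84, and 0.58 without HF 2. Hlcs had 0.82 and 0.77, and 0.46 without it. Prss51 had 0.77 and 0.89, and 0.54 without it. Serpina11 had 0.80 and 0.76, and -0.11 without it, and the chromosome 11 feature had 0.75 and 0.76, and -0.14 without it. A fit of all 21 livers with diet as a term and 1 slope, added after these values were seen, called 25 features (0.13%), the first 5 of these named genes among them. Without HF 2 it called 2 (0.0104%), the NAP features.

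Gene lists were described by the r of their members with Fabp5, beside a median over all genes of 0.029 in HF-Q livers, -0.0047 in HF livers and 0.0057 without HF 2. Of all 19225 genes 10113, 9523 and 9726 had a positive r in these sets. All list values were taken after loess, and the normalization was not varied for them. In HF-Q livers the r of Fabp5 with Fabp4, Fabp2 and Fabp1 changed sign under median centring, so the signs given for the lists may rest on loess. Genes of cholesterol synthesis, known as targets of SREBP2, had positive medians in all 3 sets of livers. The median was 0.43 in HF-Q livers and 0.40 in HF livers, with 20 of 23 genes positive in each, and 0.36 with 21 of 23 positive without HF 2. No gene of the list was called on its own. Lss, which makes lanosterol, had r = 0.67 in HF-Q livers and 0.70 in HF livers, Mvk (mevalonate kinase) 0.63 and 0.59, and Fdps (farnesyl diphosphate synthase) 0.62 and 0.57. Without HF 2 the HF values were 0.59, 0.39 and 0.60. The same list had 24 of 25 genes with a positive diet difference and a median of 0.27. Over all genes 9244 of 19718 were positive and the median was -0.0044. None of the list was called, as 0 of 19718 genes were.

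Genes of lipid storage and of PPAR-gamma, the receptor that drives Fabp4 in adipocytes, had medians that differed in sign between the sets of livers. The median r with Fabp5 was -0.37 in HF-Q livers, with 2 of 14 positive. It was -0.19 in HF livers with 4 of 14 positive, and 0.61 without HF 2 with 12 of 14 positive. Cd36, a fatty acid transporter, had r = -0.75 in HF-Q livers and -0.62 in HF livers, and 0.61 without HF 2. Plin4 and Plin5, proteins that coat lipid droplets, had -0.71 and -0.36 in HF-Q livers, -0.45 and -0.60 in HF livers, and 0.40 and 0.26 without HF 2. Fatty acid synthesis genes had medians of 0.056 in HF-Q livers and 0.27 in HF livers, and 0.65 without HF 2, with 9, 13 and 15 of 17 positive. Mlxipl, which encodes the glucose-responsive factor ChREBP, had 0.53 in HF-Q livers and 0.58 in HF livers, and -0.11 without HF 2. Acss2 and Acly, which both supply acetyl-CoA, had 0.66 and 0.56 in HF-Q livers and 0.27 and 0.35 in HF livers, and 0.65 and 0.68 without HF 2.

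Targets of PPAR-alpha, the receptor to which Fabp1 hands ligands, had medians of -0.32 in HF-Q livers and -0.37 in HF livers, with 3 of 22 positive in each, and -0.056 with 9 of 22 positive without HF 2. Cyp4a14, a fatty acid hydroxylase, had r = -0.55 in HF-Q livers and -0.70 in HF livers. Acot1, an acyl-CoA thioesterase, had -0.44 and -0.77, and the carnitine transporter Slc22a5 had -0.77 and -0.39. Without HF 2 the HF values were -0.37 for Cyp4a14, -0.19 for Acot1 and -0.53 for Slc22a5. Fatty acid uptake and activation genes had medians of 0.10 in HF-Q livers and 0.19 in HF livers, and 0.14 without HF 2. Within that list Acsl4, which activates arachidonic acid, had 0.64 in HF-Q livers and 0.69 in HF livers, but 0.21 without HF 2. Cd36, which belongs to that list too, went the other way, with -0.75 in HF-Q livers and -0.62 in HF livers, but 0.61 without HF 2.

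Among cell type markers, those of macrophages, a known site of Fabp5, had r mostly below 0. Their median was -0.26 in HF-Q livers, with 4 of 17 positive, and -0.37 in HF livers, with 1 of 17 positive, and it was -0.24 with 4 of 17 positive without HF 2. C1qa, a complement subunit, had -0.60 in HF-Q livers and -0.70 in HF livers, and Clec4f, a lectin of Kupffer cells, had -0.66 and -0.63. Without HF 2 the HF values were -0.30 for C1qa and -0.37 for Clec4f. Of the 10 hepatocyte markers 6 had a value on all arrays, with medians of 0.61 in HF-Q livers and 0.32 in HF livers, and -0.21 without HF 2. In these sets 6, 5 and 1 of 6 were positive. Apoa1, the main protein of high-density lipoprotein, had r = 0.71 in HF-Q livers and 0.90 in HF livers. It was the 1 marker with a positive r without HF 2, at 0.70. The median of endothelial markers lay between -0.070 and 0.099 in the 3 sets.

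**Figure D5:**
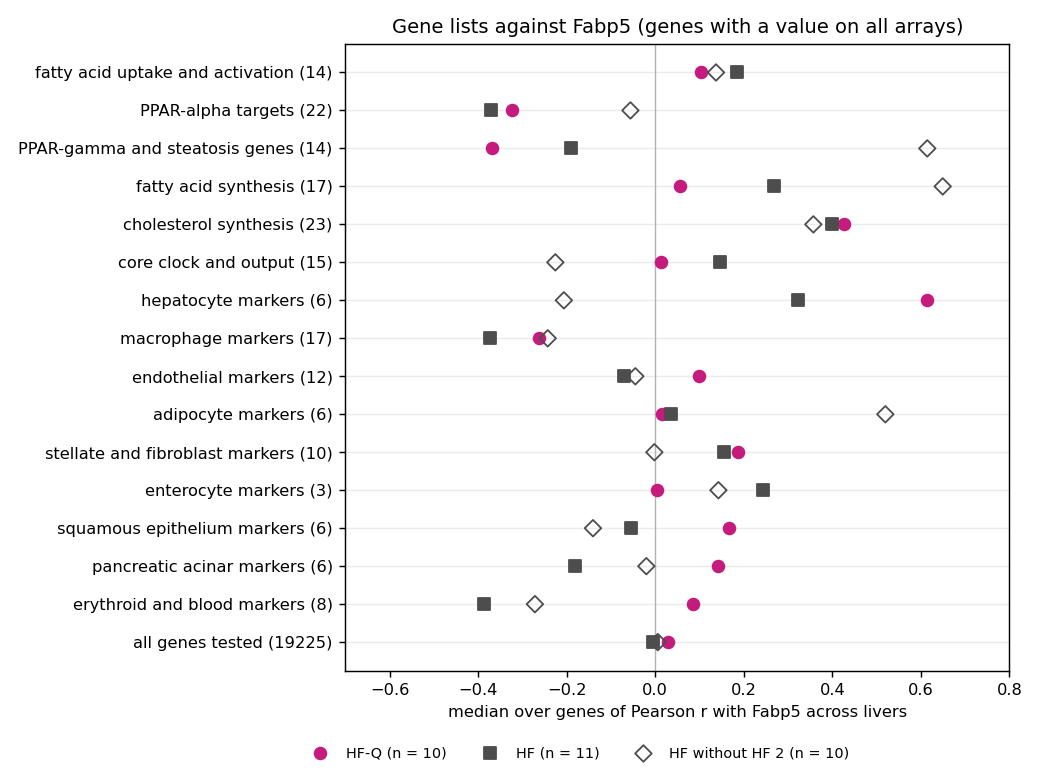
Median over the genes of a list (rows, with the number of genes) of Pearson's r with Fabp5 across livers (x axis), for HF-Q livers (circles), HF livers (squares) and HF livers without HF 2 (open diamonds). Cholesterol synthesis lies at 0.36 to 0.43 in all 3, while the PPAR-gamma list lies at -0.37, -0.19 and 0.61. All r values are after loess normalization.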

How the data were processed

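The deposited scanner files hold mean and local background intensity per spot in both channels, not normalized, and, per the file headers, a processed intensity after background subtraction and dye normalization. The submitters' processing notes name Agilent Feature Extraction 10.7.3.1. The authors studied 24 mice and excluded 3 arrays for uneven hybridisation, per the labels, and 200 ng of RNA was labelled per liver. A deposited table of log2 values by the authors served as an alternative.

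Background was corrected by normexp (offset 50) and ratios were normalized by loess, giving control and outlying spots no weight (limma 3.58.1, R 4.3.3). Outlying spots were left out and spots of a probe averaged. Probes well above background in Cy5 on at least 10 of 21 arrays were kept (26291), and the brightest stood for a gene (19718 genes). The offset draws ratios of dim genes toward 0. Names were updated through RefSeq GRCm38.p6 for 27235 probes. The share of probes well above background was 44.2% to 51.3% in HF-Q arrays and 44.6% to 49.1% in HF arrays, and the number of arrays limits the precision.

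HF-Q was set against HF, and each gene against Fabp5 within a diet, by limma's moderated test, two-sided, adjusted by Benjamini-Hochberg over all genes, and tested on simulated data. Correlations used 100000 permutations, or exact ones under 10 livers. The genes, lists and tests were chosen with earlier results of these data known. The rule named the 4 members, the 8 highest and 4 lowest r in each diet, the 8 highest of the lower r, and up to 3 members per described list by mean r. Apoa1, a hepatocyte marker, Acacb, Dcaf4 and LOC100502818 were named after their values were seen or as called features. Slides, normalization, filters, probe choice and each array were varied.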

Additional observations from a re-analysis of the deposited data

How the results depend on the processing

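The diet differences of the 4 members moved by less than the residual SD of their genes under all 14 alternatives. The same held with each array left out. That bound is wide: for Fabp1 the residual SD of 0.11 is larger than the difference of -0.066, which changed sign on slide 2 alone. It therefore does not measure how stable the small differences are. Fabp5 ran from 0.51 to 0.91 and, with arrays left out, from 0.58 to 0.81; Fabp2 from -0.42 to -0.052, Fabp4 from -0.18 to -0.091, and Fabp1 from -0.16 to 0.030. With arrays left out Fabp2 ran from -0.30 to -0.17, Fabp4 from -0.18 to -0.061, and Fabp1 from -0.082 to -0.040. Replicate numbers are shared by 10 mice of each diet, and the deviations of same-numbered arrays correlated at -0.34 to 0.16. These values cannot decide whether the numbers pair the mice, because a pairing need not show in the deviations. With a replicate block the differences were 0.62 for Fabp5, -0.25 for Fabp2, -0.14 for Fabp4 and -0.11 for Fabp1, and 0 genes were called. The SE of Fabp5 was 0.137 with the block and 0.204 without it. For Fabp2 the SEs were 0.113 and 0.114, for Fabp4 0.098 and 0.106, and for Fabp1 0.052 and 0.051.

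Genes called between the diets numbered 0 and became 1 on slide 2 alone, 1 with array weights (Sult2a7) and 0 to 4 with an array left out, 4 without HF 2 and 1 without HF-Q 10. Genes called with Fabp5 in HF livers numbered 6 and became 2 under median centring, 19 with Cy5 alone, 2 with slide as a block, 2 with NAP114472-1 in place of the Fabp5 probe (added after seeing the data) and 2 to 18 with an array left out, 18 without HF 6, 3 without HF 8 and 2 without HF 5 or HF 9. In HF-Q livers they numbered 2 to 3 throughout. The slope difference called 1 gene with no filter on dim probes, and 0 otherwise. In both diets together 25 became 2 without HF 2.

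Under median centring r in HF-Q livers turned to 0.31 for Fabp5 with Fabp4, 0.24 with Fabp2 and 0.40 with Fabp1, and passed the threshold for Fabp4 with Fabp2 (0.76 in HF-Q livers, 0.83 in HF livers) and with Fabp1 (0.85 and 0.74). With an array left out, the range for Fabp4 with Fabp2 was -0.64 to 0.61 in HF-Q livers and 0.50 to 0.84 in HF livers, where it passed the threshold without HF 1. In HF livers it was -0.47 to 0.81 for Fabp5 with Fabp4 and -0.65 to 0.72 for Fabp5 with Fabp2. Of the named genes, r with Fabp5 in HF-Q livers turned to 0.52 for Npc2, 0.45 for Coq10a and 0.14 for Gsta2 under median centring, and to -0.31 for the chromosome 17 feature with the authors' deposited values. In HF livers it turned to 0.053 for Cmc2 under median centring, to 0.10 for Ccdc103 centred on slide, and by ranks to -0.11 for Gm3993, 0.25 for Aqp2 and 0.073 for Ctsd. With an array left out the ranges that crossed 0 were -0.11 to 0.37 for the chromosome 17 feature in HF-Q livers and, in HF livers, -0.52 to 0.49 for Gm3993, -0.071 to 0.37 for Setdb1, -0.34 to 0.61 for the chromosome 4 feature, -0.51 to 0.83 for Aqp2, -0.61 to 0.22 for Cmc2 and -0.58 to 0.41 for Ctsd. The cause of these changes was not tested. A second Fabp5 probe was not run because the array files used here hold 1.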

Other observations

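Of the 25 features called by the fit with 1 slope over both diets, Acot5 and Acot8, both acyl-CoA thioesterases, had negative slopes of -0.49 and -0.18, and Apoa1 had a slope of 0.26. Selenbp1, a selenium-binding methanethiol oxidase, had a slope of 0.42, and Upp1, a uridine phosphorylase, had -0.30 (log2 per log2 of Fabp5). These were named after their values were seen, and none of them was called without HF 2.

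The summed Cy5 intensity of pancreatic acinar markers was 1446 to 2126 in HF-Q livers and 1448 to 23640 in HF livers, and that of HF 2 was 1448. Fabp1 had no value for 2 HF-Q livers, so its figures rest on 19 livers.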
